A study of Carica papaya with 12 samples.

Results

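ABORTED MICROSPORES (AMS) is a transcription factor of the anther, and 2 neighbouring papaya gene models of the 27689 in the count tables were named for it in the study. These are evm.model.supercontig_20.95 (AMS isoform 1) and evm.model.supercontig_20.94 (AMS isoform 2), and they were taken by these identifiers. RNA of papaya (Carica papaya) flower buds was sequenced in 12 libraries, 2 for each of 6 groups. Female and male buds came from the cultivar 'AU9' and hermaphrodite buds from the cultivar 'SunUp'. Each sex was sampled at 1–6 mm (labelled pre-meiosis) and at 7–12 mm (labelled post-meiosis), and all plants were untreated and grown at 1 station in Hawaii. Hermaphrodite sex and the cultivar 'SunUp' therefore cannot be told apart in any comparison that includes hermaphrodites. The question taken here was how the 2 models behave as buds grow, and whether this differs among the sexes.

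In Arabidopsis, AMS is a basic helix-loop-helix transcription factor of the tapetum, the cell layer that feeds the developing pollen. The bHLH factor DYT1 and the MYB factor TDF1 act before it, and the PHD-finger protein MS1 acts after it in the last stages of the tapetum. Plants that lack AMS form no viable pollen. Female papaya flowers carry no stamens, while male and hermaphrodite flowers do.

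Totals were 12704714 to 16564137 counts in replicate 1 of the groups and 4520811 to 8554135 in replicate 2. The replicate number is also a platform, HiSeq2000 with single-end reads for replicate 1 and HiSeq2500 with paired-end reads for replicate 2. The floral organ identity genes PI, SEP3 and both AP3 models had group means of 68.8 to 613 CPM (counts scaled to library size) in all 6 groups. Of the anther markers, SPL/NZZ, TDF1, DYT and CpMS1 had 0 to 8 counts in each female group. CRABS CLAW, taken as a carpel marker and annotated in the study as CRABS CLAW or HMG-box, was detected in every group. Its means in small and large buds were 42.6 and 59.6 CPM in females and 24.2 and 39.7 CPM in males. In hermaphrodites they were 25.5 and 26.6 CPM. Large male buds were thus above hermaphrodite buds of both sizes, although male flowers have only a rudimentary pistil.

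The 2 models are placed apart on the assembly and do not overlap. Whether they are 2 genes or parts of 1 gene divided in the annotation was not tested, and the ratio between them is therefore a ratio between models. Both lie on the plus strand of contig scf7180000007993 of the PacBio papaya assembly used by the authors. AMS isoform 2 spans positions 100122 to 101393 and has 4 exons of 199, 85, 69 and 623 nt, 976 nt in all. AMS isoform 1 spans positions 110845 to 113574 and has 8 exons of 101, 201, 88, 69, 765, 357, 114 and 186 nt, 1881 nt in all. Isoform 2 is thus the shorter model and lies upstream of isoform 1. The gap between them is 9451 nt and holds no other gene model. Only 1 exact exon length, 69 nt, occurs in both. Exons 1 to 3 of isoform 2 (199, 85 and 69 nt) are close in length and order to exons 2 to 4 of isoform 1 (201, 88 and 69 nt). The exon sequences were not compared. The 1881 nt of isoform 1 are a multiple of 3, while the 976 nt of isoform 2 leave a remainder of 1. The models are coding sequences that the authors aligned to the assembly, so their UTRs are not part of these positions. Among 18407 pairs of neighbouring tested models the median gap was 3451 nt, and 4785 pairs had a gap at least as long as this one.

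**Figure D1:**
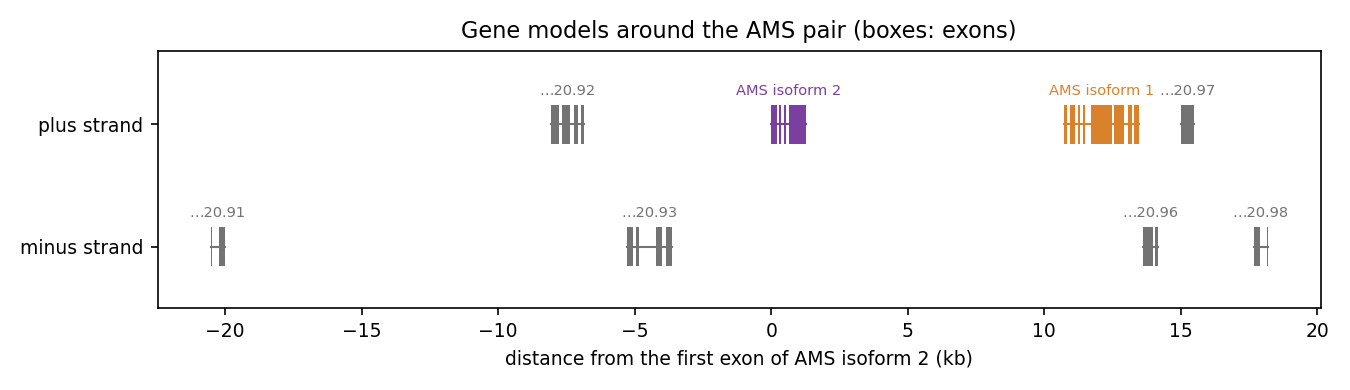
Exons (boxes) of the 2 AMS models and of the 3 nearest gene models on each side, drawn by strand at their distance in kb from the first exon of AMS isoform 2. Both AMS models are on the plus strand, with an empty gap of 9451 nt between them.

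AMS isoform 1 was abundant in male and hermaphrodite buds of both sizes and nearly absent from female buds. Male buds of 1–6 mm had 14885 and 4781 counts in replicates 1 and 2, or 825 and 674 CPM. Male buds of 7–12 mm had 2957 and 1738 counts, or 230 and 257 CPM. Both small male libraries were thus above both large ones. Hermaphrodite buds of 1–6 mm had 7856 and 2900 counts, or 509 and 651 CPM. Hermaphrodite buds of 7–12 mm had 15941 and 5190 counts, or 998 and 653 CPM. In hermaphrodites the large buds were clearly above the small ones in replicate 1 only, and the values of replicate 2 were nearly equal. In females, isoform 1 had 1 and 10 counts in small buds and 4 and 12 in large buds. These are at most 1.64 CPM in any female library, and the higher value at each size was that of replicate 2.

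AMS isoform 2 was higher in large than in small buds of both staminate sexes, and had fewer counts than isoform 1 in every male and hermaphrodite library. Male buds of 1–6 mm had 261 and 46 counts, or 14.5 and 6.48 CPM. Male buds of 7–12 mm had 1174 and 548 counts, or 91.4 and 81.2 CPM. No small male library reached the level of a large one. Hermaphrodite buds of 1–6 mm had 59 and 20 counts, or 3.82 and 4.49 CPM. Hermaphrodite buds of 7–12 mm had 643 and 406 counts, or 40.2 and 51.1 CPM. Here too the sizes did not overlap, and at each size both libraries were below those of the males. In females, isoform 2 had 0 and 2 counts in small buds and 0 in both libraries of large buds. At 7–12 mm, a count of 0 over both female libraries allows up to 0.137 CPM (3 counts over the group, counting error only).

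**Figure D2:**
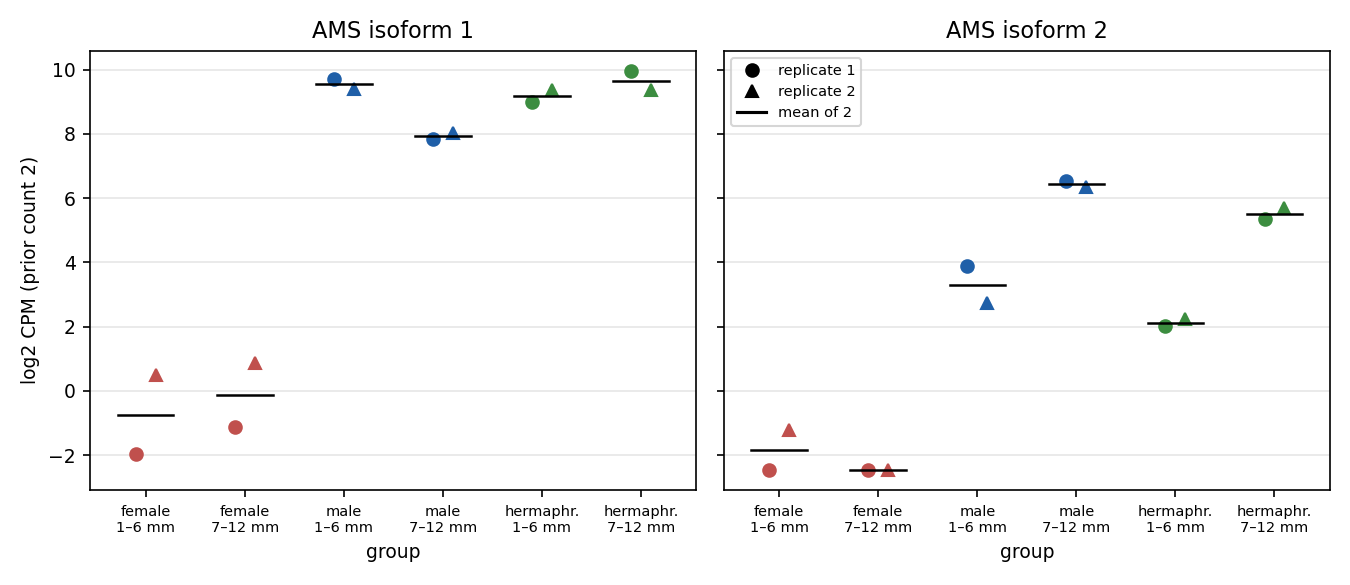
Log2 CPM (prior count 2) of both AMS models in each of the 12 libraries, with circles for replicate 1, triangles for replicate 2 and a line at the mean of both. Isoform 2 is higher in the larger buds of males and hermaphrodites, while isoform 1 is lower in the larger buds of males. In hermaphrodites, isoform 1 is nearly equal between sizes in replicate 2.

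In order of level, AMS isoform 1 had 825 ± 244 CPM (SD, n = 2) in large hermaphrodite buds, 750 ± 107.4 in small male buds, 580 ± 100 in small hermaphrodite buds and 244 ± 19.1 in large male buds. The ranges of large hermaphrodite and small male buds overlapped, while small hermaphrodite buds (509 to 651) lay just below both, and large male buds lay below all other groups with stamens. AMS isoform 2 had 86.3 ± 7.27 CPM in large male buds, 45.7 ± 7.66 in large hermaphrodite buds, 10.5 ± 5.65 in small male buds and 4.16 ± 0.470 in small hermaphrodite buds. No ranges overlapped in this order, although the difference between the sexes did not pass the test at either size. Female buds were last for both models.

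Bud size was tested first within each sex, over all 19339 genes that passed the low-count filter. A gene was called at an adjusted p under 0.05 (edgeR quasi-likelihood test, Benjamini-Hochberg) and a log2 fold change of more than 1 in size. Isoform 2 rose with bud size in males, by 3.01 on the log2 scale (SE 0.43, 95% interval 2.02 to 3.996, 8.04-fold, edgeR adjusted p = 0.00417). It rose in hermaphrodites by 3.48 (SE 0.46, interval 2.41 to 4.55, 11.1-fold, edgeR adjusted p = 0.00679). Of all tested genes, 2.92% were called higher in large male buds and 2.07% in large hermaphrodite buds. The rise was 2.64 and 3.61 within replicates 1 and 2 of the males and 3.33 and 3.46 within those of the hermaphrodites. Without replicate 1 of the small male buds the rise in males was 3.72 (edgeR adjusted p = 0.00702), and the male call was kept with any 1 library left out (2.58 to 3.72). With each library left out in turn, the hermaphrodite call was lost only without replicate 1 of the small hermaphrodite buds (log2 fold change 3.34, edgeR adjusted p = 0.111).

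Isoform 1 did not pass the test in any sex. In males its log2 fold change was -1.62 (SE 0.47, interval -2.71 to -0.53), with an edgeR adjusted p of 0.072. When replicate number entered as a block, this fall was called (log2 fold change -1.62, edgeR adjusted p = 0.0376). It was also called by limma-voom (-1.61, adjusted p = 0.00334), and by edgeR when any 1 female library was left out (-1.62 in each). DESeq2 did not call it (-1.62, adjusted p = 0.298). Nor did edgeR with RLE scaling (-1.62, adjusted p = 0.0746) or with no filter (-1.62, adjusted p = 0.0958). Without the block, 2.77% of genes were called lower in large male buds. The change was -1.84 and -1.39 within replicates 1 and 2. In hermaphrodites the log2 fold change was 0.51 (SE 0.46, interval -0.56 to 1.58, edgeR adjusted p = 0.705), and 0.97 and 0.00 within the replicates. In females the summed counts of 16 against 11, scaled to library size, gave a ratio of 1.46 between large and small buds (counting interval 0.635 to 3.47). For isoform 2 both female groups were under 3 counts, so no fold is given.

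The difference of the size effect between males and hermaphrodites was tested as an interaction. For isoform 1 it was -2.13 on the log2 scale (SE 0.65, interval -3.65 to -0.61), negative within both replicates (-2.81 and -1.39). This did not pass the test over all genes (edgeR adjusted p = 0.266), in which 0.512% of genes were called. For isoform 2 the difference was -0.47 (interval -1.85 to 0.91, edgeR adjusted p = 0.933). The larger rise of isoform 2 in hermaphrodites was thus within the error. The study describes hermaphrodite buds as larger than male ones and allows that stages may have differed between its qPCR samples. Buds were grouped here by size alone. Sex and developmental stage therefore cannot be told apart in any comparison of males with hermaphrodites.

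The contrast between the models was followed as the ratio of isoform 2 to isoform 1 within each library, in which scaling and library size cancel. In small male buds 1.72% (95% Wilson interval 1.53 to 1.94) and 0.953% (0.715 to 1.27) of the reads of the pair fell on isoform 2 in replicates 1 and 2. In large male buds these were 28.4% (27.1 to 29.8) and 23.97% (22.3 to 25.8). About 1 in 4 reads of the pair thus came from isoform 2 in large male buds. In hermaphrodite buds the shares were 0.745% (0.578 to 0.960) and 0.685% (0.444 to 1.06) at 1–6 mm. At 7–12 mm they were 3.88% (3.59 to 4.18) and 7.26% (6.60 to 7.96). Shares were higher in every large library than in every small one, and isoform 1 had most of the reads throughout. These intervals cover counting error only.

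**Figure D3:**
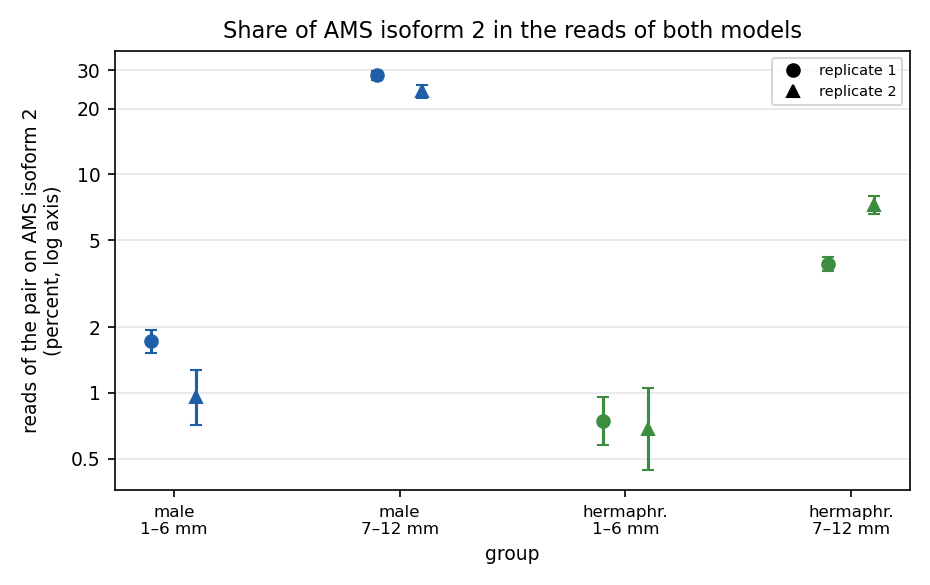
Percent of the reads of both AMS models that fell on isoform 2 (log axis), in each male and hermaphrodite library, with 95% Wilson intervals as bars. Large male buds reach 23.97 and 28.4%, while large hermaphrodite buds reach 3.88 and 7.26%.

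Per kilobase of model, isoform 1 exceeded isoform 2 by 29.6 and 53.9 times in small male buds and by 1.31 and 1.65 times in large male buds. In hermaphrodites it exceeded isoform 2 by 69.1 and 75.2 times in small buds and by 12.9 and 6.63 times in large buds. On this scale the levels of the 2 models were close in large male buds and far apart in the other groups. Ranked per kilobase among the 19339 tested genes, isoform 1 was between rank 250 and rank 583 in the small buds of both sexes and in the large hermaphrodite buds, and at ranks 1536 and 1607 in large male buds. Isoform 2 moved from ranks 12175 and 15442 in small male buds to 2315 and 2932 in large ones, and from 16079 and 16059 to 6047 and 4746 in hermaphrodites.

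The change of this log2 ratio with bud size was tested with limma over all 18407 pairs of neighbouring tested models. It was 4.74 in males (SE 0.66, interval 3.25 to 6.23, 26.7-fold, limma adjusted p = 0.00215) and 2.91 in hermaphrodites (SE 0.66, interval 1.42 to 4.40, 7.51-fold, limma adjusted p = 0.0354). Of all pairs, 8.97% were called in males and 4.55% in hermaphrodites, in either direction. By size of change the AMS pair was at rank 151 in males and 335 in hermaphrodites. The 2 changes differed by 1.83 (interval -0.28 to 3.94, limma adjusted p = 0.573), which did not pass the test, and 0.163% of pairs were called there. An exact two-sided permutation over libraries gave p = 0.333 within each sex and p = 0.0556 over both sexes, each the smallest that these numbers of libraries allow. The hermaphrodite call was lost without any 1 of 7 libraries: replicate 2 of the small male buds, either library of the large male buds, or any of the 4 hermaphrodite libraries (changes 2.43 to 3.38, limma adjusted p up to 0.23). Small male and small hermaphrodite buds of replicate 2 have the highest unaligned shares. Without both, the change was 4.32 in males (limma adjusted p = 0.0566) and 2.85 in hermaphrodites (limma adjusted p = 0.238).

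Between the sexes, both models were far higher in staminate than in female buds. Isoform 1 was higher in males than in females by 10.46 on the log2 scale at 1–6 mm (edgeR adjusted p = 5.51e-05) and by 8.29 at 7–12 mm (edgeR adjusted p = 0.000101). It was higher in hermaphrodites than in females by 10.09 at 1–6 mm (edgeR adjusted p = 7.59e-05) and by 10.05 at 7–12 mm (edgeR adjusted p = 6.29e-05). The size of these differences rests on the few female counts. Without replicate 1 of the small female buds they were 9.24 for males and 8.87 for hermaphrodites at 1–6 mm, and without replicate 2 they were 13.13 and 12.76. Without replicate 1 of the large female buds they were 7.20 and 8.96 at 7–12 mm, and without replicate 2 they were 9.74 and 11.50, all still called. Isoform 2 was called in all 4 of these comparisons as well (edgeR adjusted p from 3.55e-05 to 0.00235). Scaled to library size, its summed counts in small male buds were 134 times those of females (counting interval 36.8 to 1112). In small hermaphrodite buds they were 43.6 times those of females (11.7 to 366). The female sum at this size was 2 counts. Against the limit of 3 counts over the female group, isoform 2 in large buds was at least 642-fold higher in males. For hermaphrodites the bound was at least 320-fold higher. Of all tested genes, 5.86% and 5.15% were called higher in small male and small hermaphrodite buds than in female ones, and 8.79% and 7.74% in large buds. Since whole buds were sequenced, fewer cells that express a gene and less RNA per cell cannot be told apart.

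Between males and hermaphrodites, isoform 1 was called at 7–12 mm and not at 1–6 mm. At 7–12 mm it was lower in males by 1.76 on the log2 scale (log2 fold change -1.76, SE 0.47, interval -2.86 to -0.66, 3.39-fold, edgeR adjusted p = 0.0373), and 4.3% of genes were called lower. Within replicates 1 and 2 the difference was -2.11 and -1.34. The call was lost without any 1 of the 8 male and hermaphrodite libraries (log2 fold change -2.03 to -1.42, edgeR adjusted p 0.0508 to 0.188) and with DESeq2 (log2 fold change -1.77, adjusted p = 0.173). At 1–6 mm the difference was 0.37 (interval -0.70 to 1.44, edgeR adjusted p = 0.721), where 4.59% of genes were called in either direction, and the test of whether the 2 sizes differ is the interaction given above. For isoform 2 the difference was 1.39 at 1–6 mm (interval 0.34 to 2.44, edgeR adjusted p = 0.102) and 0.92 at 7–12 mm (interval 0.01 to 1.84, edgeR adjusted p = 0.163).

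The anther and organ identity genes of the study's tables form a list of 14 further genes, all of which were tested. With bud size, 1 was called higher and 3 lower in males, where 2.92% of all tested genes were called higher and 2.77% lower (median log2 fold change of the list 0.12, against 0.01 over all tested genes). In hermaphrodites 1 was called higher and 2 lower, where 2.07% of all tested genes were called higher and 0.972% lower (median 0.48, against 0.00). In females none was called, against 1.94% of all genes. Of the 6 genes that act before AMS, 3 were called lower in large male buds, against 2.77% of all tested genes. These were SPL/NZZ, which starts the spore-forming cells (log2 fold change -2.005, edgeR adjusted p = 0.029), the receptor kinase EMS1-like (-1.35, 0.0234) and TPD1, its small protein ligand in Arabidopsis (-1.70, 0.0469). In large hermaphrodite buds, EMS1-like (-1.25, edgeR adjusted p = 0.0459) and DYT (-3.85, edgeR adjusted p = 0.00107) were called lower there.

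TDF1 and DYT are the genes placed just before AMS in Arabidopsis. TDF1 had 8937 and 2796 counts in small male buds and 3240 and 2184 in large ones. In hermaphrodites it had 3893 and 1429 counts in small and 10379 and 4667 in large buds. Its log2 fold change with size was -0.63 in males (edgeR adjusted p = 0.488) and 1.11 in hermaphrodites (edgeR adjusted p = 0.26), neither called, with the same pair of signs as isoform 1. DYT, in contrast, had 172 and 32 counts in small hermaphrodite buds and 10 and 5 in large ones. In males it had 90 and 31 counts in small and 26 and 22 in large buds (log2 fold change -0.84, edgeR adjusted p = 0.196). Its size effect differed between the sexes by 3.02 (SE 0.53, edgeR adjusted p = 0.0436).

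CpMS1, the papaya relative of MS1, had 1027 and 43 counts in small male buds, 2737 and 1157 in large male buds, 2 and 0 in small hermaphrodite buds, and 2789 and 1461 in large hermaphrodite buds. Scaled to library size, its summed counts in large hermaphrodite buds were 1765 times those in small ones. The counting interval was 488 to 14582, which leaves out the spread between replicates. The rise in hermaphrodites was called by the edgeR test (adjusted p = 0.0279). The change of CpMS1 in males was not called (log2 fold change 2.55, edgeR adjusted p = 0.151). GPAT1, an acyltransferase of the tapetum and pollen in Arabidopsis, had log2 fold changes of 0.47 in males (edgeR adjusted p = 0.74) and 2.84 in hermaphrodites (edgeR adjusted p = 0.0574). CpMMD1, named for a PHD-finger gene of male meiosis, had -2.02 and 1.40 (edgeR adjusted p = 0.168 and 0.411). Of the organ identity genes, AP3 isoform 1 was called higher in large male buds (1.29, edgeR adjusted p = 0.000313). Its size effect differed between males and females by 1.25 (SE 0.17, edgeR adjusted p = 0.00343), in a test that called 5.38% of genes.

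**Figure D4:**
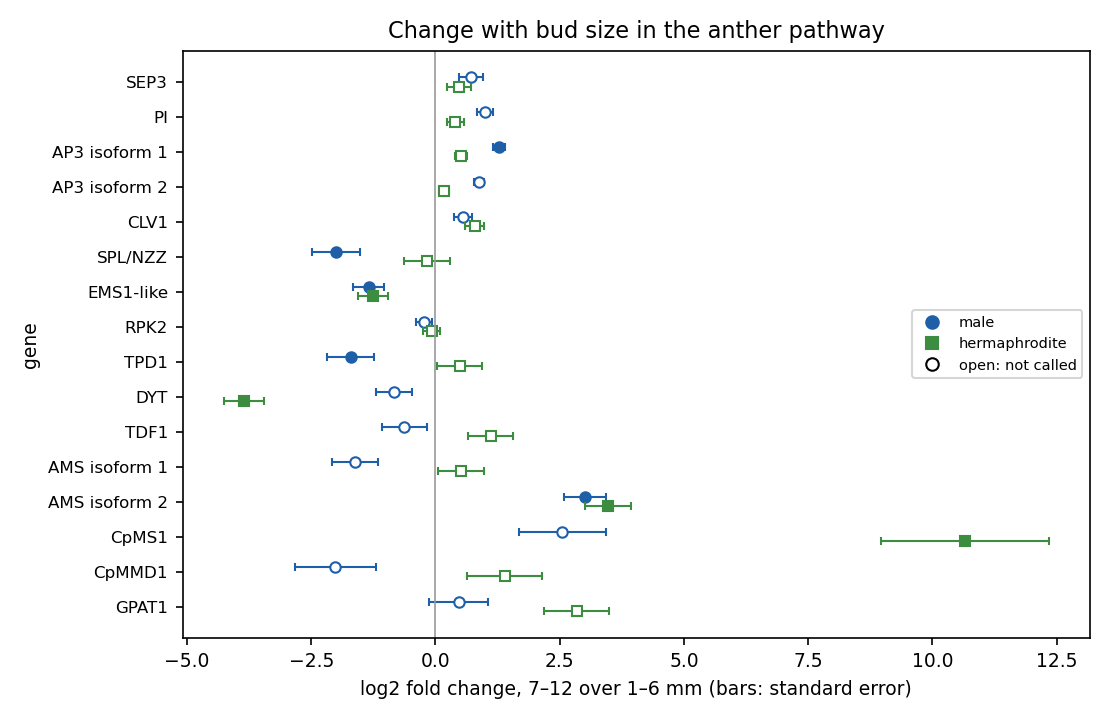
Log2 fold change of 7–12 over 1–6 mm buds for the AMS models and 14 further genes in males (circles) and hermaphrodites (squares), with standard errors as bars and filled symbols for genes called. AMS isoform 2 is the only gene called higher in both sexes; the CpMS1 value in hermaphrodites is fitted against 2 counts and is no measure of its fold.

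At the locus, none of the 3 nearest gene models on each side was called for bud size in any sex. Such calls were rare over all tested genes. They were 1.94% in females, 2.92% higher and 2.77% lower in males, and 2.07% higher and 0.972% lower in hermaphrodites. The closest to isoform 1, evm.model.supercontig_20.96, lies 161 nt after it on the other strand and had 6 to 22 counts in each group. Next to isoform 2, evm.model.supercontig_20.93 lies 3635 nt away, also on the other strand. Its log2 fold changes with size were 0.64 in males (edgeR adjusted p = 0.0147) and 0.77 in hermaphrodites (edgeR adjusted p = 0.012), which were under the fold limit, and -0.04 in females (edgeR adjusted p = 0.964). Against females at 1–6 mm its log2 fold changes were 0.65 in males (edgeR adjusted p = 0.00595) and 0.66 in hermaphrodites (edgeR adjusted p = 0.00594), also under the fold limit. It was called higher at 7–12 mm in males (1.33, edgeR adjusted p = 7.02e-05) and in hermaphrodites (1.47, edgeR adjusted p = 5.15e-05) than in females. The comparisons at 7–12 mm called 8.79% and 7.74% of all tested genes higher. The other 5 models were not called between any sexes, and evm.model.supercontig_20.92, the most abundant, had group means of 697 to 1077 CPM.

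**Figure D5:**
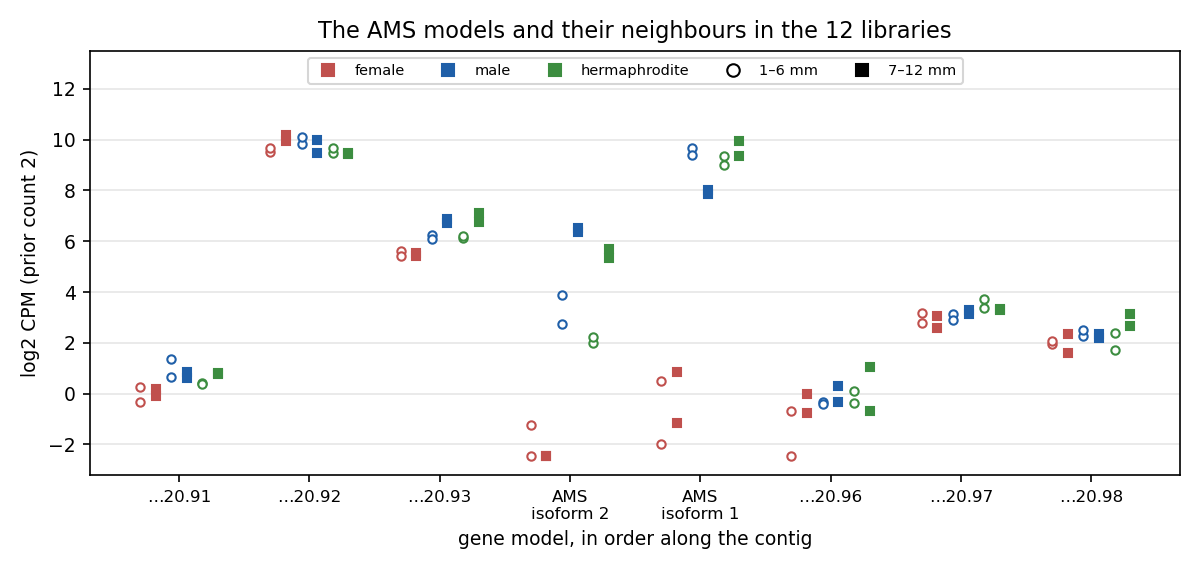
Log2 CPM (prior count 2) of the 2 AMS models and 6 neighbouring models in order along the contig, with 1 symbol per library, open circles for 1–6 mm and filled squares for 7–12 mm. Of the 8 models, the 2 AMS models have the widest gap between female and staminate buds.

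For each AMS model, the genes most like it were those with the smallest root mean square difference of centred log2 CPM over the 12 libraries, among 19338 other genes. For isoform 1 these were TDF1 (0.51), evm.model.supercontig_107.18 (0.57) and evm.model.supercontig_3.23 (0.58). For isoform 2 they were evm.model.supercontig_549.2 (0.53), evm.model.supercontig_0.134 (0.62) and evm.model.supercontig_101.53 (0.68). The genes nearest to one model were not those nearest to the other: isoform 2 was at rank 75 for isoform 1 (2.35), and isoform 1 at rank 364 for isoform 2. TDF1 was at rank 252 for isoform 2, and CpMS1 at rank 447 for isoform 1 and 208 for isoform 2. Size effects of the genes most like isoform 1 were negative in males (log2 fold changes -0.63, -1.37 and -2.48) and positive in hermaphrodites (1.11, 1.03 and 0.59). Those of the genes most like isoform 2 were positive in males (2.03, 2.46 and 1.12) and in hermaphrodites (4.38, 4.33 and 3.28). As these genes were chosen by their profiles, the values are a description only.

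A read with several alignments was counted once for each of them, so reads shared by the 2 models would enter both counts. Isoform 2 had 59 and 20 counts in small hermaphrodite buds beside 7856 and 2900 of isoform 1. Shared reads there could thus be at most 0.745% and 0.685% of the reads of the pair. That bound is every count of isoform 2 in those libraries, so it sets no limit on the shared part of isoform 2. Whether reads were shared was not tested in any library. How far the level of isoform 2, its rise with bud size and the pair ratio rest on shared reads was not tested either.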

How the data were processed

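Flower buds of 3 sexes and 2 sizes were sequenced from stranded mRNA libraries with reads of 100 nt. The authors deposited raw counts, whole reads for each gene model, with no normalization. Per the study's methods and submitters' processing notes, the authors used FastQC (0.11.5), Trimmomatic (0.36), HISAT2 (2.0.5), SAMtools (1.3.1) and featureCounts (1.5.2), on a PacBio assembly. Per the file headers, all 12 libraries used strand setting 2, counted reads with several alignments and used no pair option. Mates in replicate 2 were thus handled as separate reads. Whether both mates of a pair were counted was not tested. Exon positions and model lengths were read from the deposited files, and CPM and RPKM were computed here.

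The tests used edgeR 4.0.16, limma 3.58.1 and, as an alternative, DESeq2 1.42.0, under R 4.3.3. Of 27689 models, 23196 had a count and 19339 passed filterByExpr (minimum count 10). Libraries were scaled by TMM, and 1 coefficient per group was fitted over 12 libraries with robust quasi-likelihood. Each SE is the size of a log2 fold change divided by the root of its F statistic. Log2 CPM used a prior count of 2. The common biological coefficient of variation was 0.307. P-values measure the spread between 2 labelled biological replicates a group, which also differ in platform. Without the block, the platform difference is part of that spread.

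The members, the 14-gene list and the tests were chosen with earlier results of these data known. Named genes are both members, that list, the 3 models nearest on each side and the 3 tested genes most like each member. Same-numbered libraries share a platform, and their deviations from group means correlated in each of 15 pairs of groups (lowest r 0.734, median 0.782, highest 0.839). The number therefore pairs the samples, but a block was fitted as an alternative because the study's methods state none. Alternatives were RLE scaling, no filter, DESeq2, limma-voom, the replicate block, only the libraries compared, other prior counts (0.5 and 5) and pair sets for the pair ratio, leaving out each library, and leaving out both libraries with high unaligned shares. The steps were tested on simulated data. None of the gene identifiers matched the annotation table given, so names are those of the study.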

Additional observations from a re-analysis of the deposited data

Results flagged for a closer look

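For 2 genes of the list, the change with bud size differed between 2 sexes by the interaction test over all 19339 genes. The size effect of DYT was -0.84 on the log2 scale in males, where it was not called, and -3.85 in hermaphrodites, a difference of 3.02 (SE 0.53, edgeR adjusted p = 0.0436). The size effect of AP3 isoform 1 was called in males (1.29) and not in females, and they differed by 1.25 (SE 0.17, edgeR adjusted p = 0.00343). Neither AMS model passed this test.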

How the results depend on the processing

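Of 491 comparisons of an alternative with the reported value, over 26 results, 450 kept their direction and call, 21 lost the call, 12 gained one and 8 reversed. The reversed ones concern values not called: the isoform 1 size effect in females, its hermaphrodite minus female interaction, and the isoform 2 male minus hermaphrodite interaction. For isoform 1, the male minus hermaphrodite difference at 7–12 mm was lost with no filter (-1.76), with DESeq2 (-1.77) and without both libraries of high unaligned share (-1.76). Its size effect in males was called by limma-voom (-1.61), with the replicate block (-1.62) and with only the compared libraries (-1.63). The same fall was called when any 1 female library was left out (-1.62 in each). That effect was not called by DESeq2, with RLE scaling or with no filter (-1.62 in each). Its male minus hermaphrodite interaction was called by limma-voom (-2.10). For isoform 2, DESeq2 called the male minus hermaphrodite difference at 1–6 mm (1.38) and the interactions of males (5.41) and hermaphrodites (5.89) with females. In edgeR these interactions were 6.21 and 6.68, not called, and 2.9996 and 3.48 without replicate 2 of the small female buds (adjusted p = 1 for both), which holds the only 2 female counts, so their size depends on the prior count and is no measure of a fold. Without both libraries of high unaligned share, the pair ratio changes were 4.32 and 2.85 in males and hermaphrodites, neither called, and the isoform 1 hermaphrodite minus female interaction was 0.14. The cause was not tested.

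With each library left out, isoform 1 gave -0.90 to 3.23 for the size effect in females, -1.75 to -1.47 in males, -2.03 to -1.42 for males minus hermaphrodites at 7–12 mm and -2.71 to 1.41 for the hermaphrodite minus female interaction. Isoform 2 gave 2.58 to 3.72 for the size effect in males, 3.30 to 3.64 in hermaphrodites, 0.66 to 1.81 for males minus hermaphrodites at 1–6 mm and -0.90 to 0.25 for the male minus hermaphrodite interaction. The pair ratio change in hermaphrodites was 2.43 to 3.38. Genes called for bud size numbered 376 in females (104 to 795 over all alternatives), 1100 in males (621 to 1403) and 589 in hermaphrodites (172 to 850). Pairs called in males were 3.45 to 11.9%, in hermaphrodites 1.85 to 7.04%, and for the difference of the sexes 0 to 3.3%. The block changed no other call of the AMS models. Female counts of at most 12 a library limit every comparison with females.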
